A study of Mus musculus with 9 samples.

Results

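Kidney nuclei taken 28 days after ischemia-reperfusion injury (IRI) were compared with nuclei of control kidneys, over all nuclei of each library. The series holds 9 libraries, 1 per mouse, and this comparison used 7 of them: 3 from day 28 (day 28 mice 1 to 3) and 4 controls. Members were chosen by their labels alone, with all nuclei of a library kept, which gave 7188 of 27738 nuclei for day 28 and 13116 for control. The day 28 mice were males of the genotype Krt20T2A-CE; INTACTnuGFP/+, given tamoxifen at 0.05 mg/g, with a clamp of both renal pedicles for 18 min. In that line a recombinase that needs tamoxifen is expressed from the Krt20 gene and switches on a nuclear GFP, so that the sorted nuclei are those of cells in which Krt20 was active under tamoxifen, and of their progeny. When tamoxifen was given is not stated in the labels. The control mice were males of the genotype Six2TGC; Rosa26rtTA; pTRE-H2BeGFP, fed doxycycline at 625 mg/kg of food, in which a GFP-tagged histone marks nephron cells. Controls 2 to 4 had sham surgery and control 1 had no surgery. All mice were 11 to 19 weeks old by the surgery protocol, and GFP-positive nuclei were sorted in every case. Reporter line, drug and sort therefore differ together with injury, and their parts in any difference below cannot be told apart.

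The proximal tubule reabsorbs most of the filtrate of the glomerulus, and it does so on energy from fatty acid oxidation in densely packed mitochondria. It is the segment most damaged by ischemia. Injured cells of this segment lose transporters, switch on genes such as Havcr1 and Sox9, and either return to their former state or remain in an inflamed and scar-promoting one, often called failed repair, of which Vcam1 is a common marker. Serum creatinine, which rises when filtration is lost, was 0.488, 0.208 and 0.228 mg/dL at 48 hours in day 28 mice 1, 2 and 3, and 0.093, 0.114 and 0.074 mg/dL at harvest, lower in each mouse. Controls 2 and 4 have a harvest value in the labels, 0.100 and 0.122 mg/dL. Mouse 1 had the highest 48 hour value of the 3.

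The libraries were read as molecule counts (UMIs, each standing for 1 captured transcript). Library totals ran from 1833617 to 9622439 UMIs in control and from 2409411 to 11668625 at day 28, and the median nucleus held 668 to 1938 and 1185 to 4174 UMIs. Control 4 was the shallowest library. The cell barcodes of day 28 mouse 1 belonged to the set of the v2 kit, as did those of the controls, and those of day 28 mice 2 and 3 to the v3 set. The barcode set is therefore tied to the group but for 1 mouse, and a fit with the barcode set as a term is given beside the counts of gene lists below. Since mouse 1 is the only day 28 mouse with the barcodes of the controls, the change in that fit is in effect that of mouse 1 against the controls. Over all tested genes day 28 mice 2 and 3 correlated with each other at 0.985 (Pearson's r of log2 CPM across genes, which are not independent replicates), while mouse 1 correlated with them at 0.936 and 0.930 and with the controls at 0.859 to 0.907. The nuclear RNA Malat1 took 19.8% to 24.0% of control UMIs and 16.0% to 17.6% of day 28 UMIs. In sums over all nuclei, fewer cells of a type and less RNA per cell cannot be told apart.

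Krt20, the keratin gene that drives the tracing recombinase (chr11:99428403-99438150, minus strand), was present at 5.21, 0.656, 0.802 and 2.12 CPM in controls 1 to 4 and 16.8, 21 and 12.2 CPM in day 28 mice 1 to 3. Positions are those of GENCODE M21 on the build GRCm38. Changes of single genes are log2 changes, day 28 minus control, with the standard error (SE) and adjusted p of edgeR's quasi-likelihood test. The contrast is between 3 day 28 and 4 control libraries. The day 7 libraries of the series were in the same fit and added to the estimate of the spread. CPM are UMIs of a gene per 1000000 UMIs of the tested genes after scaling. Every day 28 library lay above every control, and control 1, the mouse without surgery, was the highest control. The log2 change was 2.88 (SE 0.54, adjusted p = 0.0015), and 4.07 without control 1. Six2, the gene whose regulatory sequence marks the control nephron lineage, was not listed in both tables and has no value here.

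Of 15275 genes tested, 3083 (20.2%) were higher and 2694 (17.6%) lower at day 28, at a Benjamini-Hochberg adjusted p under 0.05. With the barcode set as a term the counts were 1295 (8.48%) and 1118 (7.32%), and in day 28 mouse 1 against the 4 controls, all with v2 barcodes, 699 (4.74%) and 517 (3.51%) of 14736 (8.25% in either direction). The fit with the term thus rests on mouse 1 and is no check on mice 2 and 3. Single genes are given with that term where it moved the fold by more than 1.5 times or changed the call. No gene called in one direction was called in the other under any of the fits. In 3466 genes (22.7%) all day 28 libraries lay above all controls, and in 2944 (19.3%) all lay below. Of the calls, 53.4% were rises. Without scaling factors between libraries 4416 genes were higher and 1829 lower, 70.7% of calls were rises, and the median gene moved up by 0.25 on the log2 scale, so each change below can be read against that shift. The median log2 change over all genes was 0.07. It went from -0.53 in the fifth of genes with the shortest span on the genome to 0.33 in the fifth with the longest, and with the barcode set as a term from -0.14 to 0.17. The part of transcript length or capture chemistry in the changes below was not tested.

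**Figure D1:**
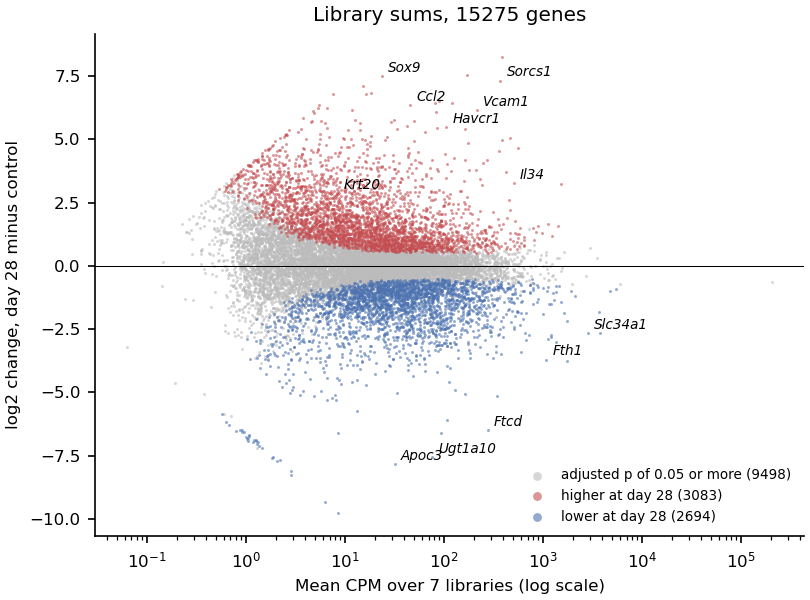
Log2 change at day 28 against control (vertical axis) by mean CPM over the 7 libraries (horizontal axis, log scale), 1 point per gene. The 3083 genes that were higher are red, the 2694 that were lower blue and the 9498 others grey, and 12 genes of the text are labelled.

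The largest rises were those of genes that controls barely expressed. Kcnh8, a voltage-gated potassium channel gene, rose from 2.34 ± 0.962 to 399 ± 42.4 CPM (mean ± SD, n = 4 and n = 3), a log2 change of 7.53 (SE 0.32, adjusted p = 1.7e-07). Sorcs1, a sorting receptor gene best known from neurons, rose from 5.46 ± 2.92 to 862 ± 201 CPM (7.32, SE 0.39, adjusted p = 5.3e-07). Sox9, a transcription factor gene of the developing and regenerating tubule (chr11:112782224-112787760, plus strand), was counted at 3, 0, 3 and 0 UMIs in controls 1 to 4 and 164, 612 and 361 UMIs in day 28 mice 1 to 3, and its log2 change was 7.50 (SE 0.40, adjusted p = 5.3e-07). Npas3, a transcription factor gene of the nervous system, rose by 6.44 (SE 0.34, adjusted p = 5.3e-07). Ltbp2, which encodes a matrix protein of the latent TGF-beta binding family, rose by 6.79 (7.41 without control 1 and 5.81 with the barcode term). With 6 and 7 UMIs over the 4 controls, the sizes for Sox9 and Ltbp2 rest on few control molecules. Traf1, an adaptor gene of tumour necrosis factor receptors, was counted at 5, 0, 0 and 0 UMIs in controls 1 to 4 and 75, 392 and 303 UMIs in day 28 mice 1 to 3 (adjusted p = 7.3e-06). All of its control UMIs came from control 1, so no size is given.

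Several of the largest falls were those of metabolic genes known from liver and proximal tubule. Ftcd, an enzyme gene of histidine breakdown and the folate cycle (chr10:76575648-76590338, plus strand), had 533, 384, 419 and 595 CPM in controls 1 to 4 and 12.1, 3.62 and 2.57 CPM in day 28 mice 1 to 3. Each day 28 library lay far below the lowest control, and the log2 change was -6.49 (SE 0.50, adjusted p = 5.1e-06). Apoc3, an apolipoprotein gene, was counted at 174, 256, 257 and 202 UMIs in controls 1 to 4 and 0, 5 and 0 UMIs in day 28 mice 1 to 3 (adjusted p = 4.8e-05), so that its remaining day 28 signal came from mouse 2. Col6a6, a collagen VI chain gene, fell by 6.62, Clec2h, a lectin-like receptor gene, by 5.14, and Ttr, the thyroxine carrier gene, by 4.92. Ugt1a10, a glucuronosyltransferase gene, was counted at 504, 988, 1264 and 125 UMIs in controls 1 to 4 and 0, 16 and 0 UMIs in day 28 mice 1 to 3 (adjusted p = 2.5e-05). It shares exons with its neighbours of the Ugt1a cluster, and how their reads were divided is not given in the sources used here. Cyp4a14 and Cyp4a10, both fatty acid hydroxylase genes, fell by 6.08 and 5.05. Without day 28 mouse 2 the values were -5.89 for Col6a6 and -6.78 for Cyp4a14. Without mouse 3 they were -7.85, -5.46 and -4.46 for Col6a6, Cyp4a14 and Cyp4a10, and without mouse 1 -7.25, -5.74 and -5.83 for Ftcd, Clec2h and Cyp4a10. With the barcode set as a term Cyp4a14 no longer passed (-5.31, adjusted p = 0.066), while Ftcd was at -5.31, Clec2h at -4.31, Ttr at -4.28 and Cyp4a10 at -3.91. Of all genes that fell, 30 had no UMI in any day 28 library.

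Most of the tubule injury genes tested were higher 28 days after the clamp. Of 27 members, 16 rose and 1 fell, against 20.2% and 17.6% of all genes, with a median log2 change of 1.69, and 16 rose and 0 fell with the barcode set as a term. Havcr1, which encodes KIM-1, a receptor for dying cells (chr11:46735080-46779578, plus strand), had 7.59, 7, 2.14 and 4.78 CPM in controls 1 to 4 and 248, 296 and 174 CPM in day 28 mice 1 to 3. Each day 28 library stood above each control, and the change was 5.47 (SE 0.38, adjusted p = 2.7e-06). Cd44, a hyaluronan and osteopontin receptor gene (chr2:102811141-102901665, minus strand), had 2.98, 2.84, 0.936 and 2.65 CPM in controls 1 to 4 and 159, 194 and 267 CPM in day 28 mice 1 to 3, a change of 6.51 (SE 0.36, adjusted p = 6.0e-07). Cp, the gene of the copper carrier ceruloplasmin, rose from 33.5 ± 12.9 to 797 ± 144 CPM (4.56), and Spp1, which encodes osteopontin, from 127 ± 56.3 to 567 ± 163 CPM (2.15, SE 0.32, adjusted p = 3.3e-04). Annexin genes, whose products bind membrane lipids, rose for each of the members listed: Anxa3 by 4.52, Anxa2 by 2.78, Anxa5 by 1.69 and Anxa1 by 2.07. Anxa1 no longer passed with the barcode term (1.98, adjusted p = 0.14) or without day 28 mouse 3 (1.98, adjusted p = 0.061). Plaur, the receptor gene of urokinase, rose by 2.51 (SE 0.50, adjusted p = 0.0023), and Myof, a membrane repair gene, by 3.35 (SE 0.34, adjusted p = 3.1e-05) (2.50 with the barcode term). Not every injury marker moved: S100a10, which encodes the partner of annexin A2, had 44.7 ± 8.88 CPM in control and 57.5 ± 23.4 CPM at day 28 and did not pass (adjusted p = 0.32). Lcn2, the gene of the urinary injury marker NGAL, did not pass the test (0.11, SE 0.70, adjusted p = 0.92).

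Leukocyte adhesion genes rose for 6 of 12 members and fell for 0, or 50% and 0%, against 20.2% and 17.6% of all genes. The median was 0.87. With the barcode term 3 rose and 0 fell, or 25% and 0%, against 8.48% and 7.32%. Vcam1, the ligand of the leukocyte integrin VLA-4 and a marker of failed repair (chr3:116109949-116129688, minus strand), had 9.52, 6.56, 2.94 and 9.55 CPM in controls 1 to 4 and 572, 364 and 538 CPM in day 28 mice 1 to 3. The level was low in every control, and the change was 6.16 (SE 0.38, adjusted p = 9.9e-07). Icam1, the ligand of LFA-1 (chr9:21015985-21028817, plus strand), had a smaller change on a higher base, with 25.3, 23.4, 11.8 and 39.3 CPM in controls 1 to 4 and 85.7, 67.9 and 90.8 CPM in day 28 mice 1 to 3 (1.75, SE 0.32, adjusted p = 0.0013). The groups did not overlap for either gene. Cd47, whose product tells macrophages not to engulf a cell, rose by 1.78 (SE 0.21, adjusted p = 7.6e-05), and the cell adhesion gene Cadm1 by 1.21 (0.45 with the barcode term, adjusted p = 0.39). Alcam had 93.4 ± 21.7 CPM in control and 137 ± 26.7 CPM at day 28 and did not pass (0.55, SE 0.23, adjusted p = 0.072), but passed without control 1 (0.68, adjusted p = 0.043) and without scaling factors (0.82, adjusted p = 0.01).

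**Figure D2:**
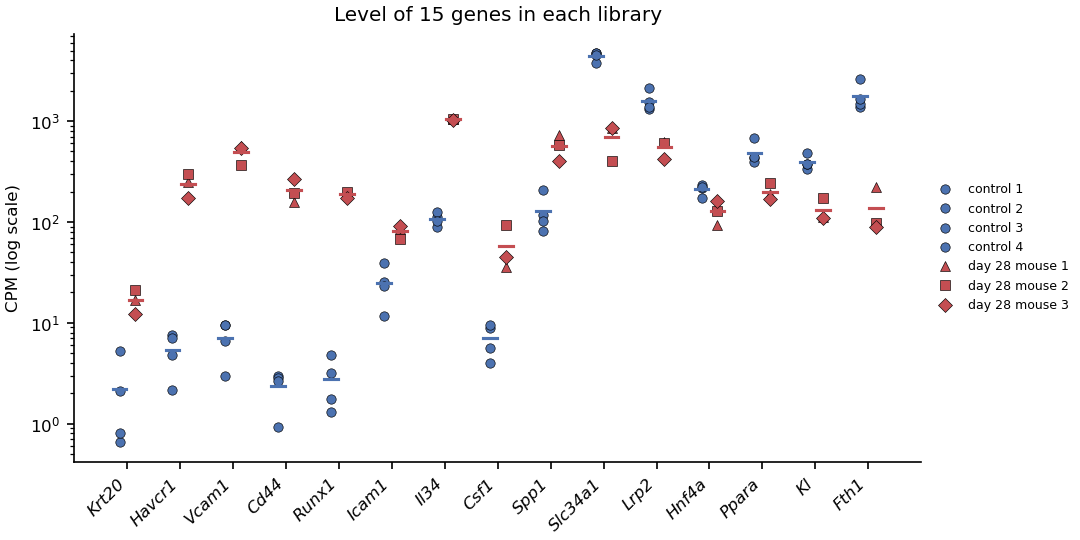
CPM of 15 genes (log axis) in each of the 7 libraries, with a bar at the mean of each group. The control libraries are blue circles and day 28 mice 1, 2 and 3 are a red triangle, square and diamond. Vcam1 lies between 364 and 572 CPM in the day 28 libraries and under 10 CPM in the controls. The groups do not overlap for any of the 15. Of the 19 key genes, Six2, Ccl2, Sox9 and Cx3cl1 are not drawn, and Cx3cl1 did not pass (log2 change 0.13). Of all genes tested, 22.7% lie above all controls in every day 28 library and 19.3% below.

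Chemokines recruit leukocytes by a gradient read by receptors on the incoming cell, and the growth factors CSF1 and IL-34 keep macrophages alive through 1 shared receptor. Genes of this list rose for 11 of 21 members and fell for 3, or 52.4% and 14.3%, against 20.2% and 17.6% of all genes. The median was 1.21, and 9 rose and 1 fell with the barcode term. The monocyte chemokine gene Ccl2 (chr11:82035571-82037453, plus strand) had 1.64, 1.31, 1.34 and 0 CPM in controls 1 to 4 and 203, 56.5 and 58.3 CPM in day 28 mice 1 to 3. Mouse 1 stood highest by a wide margin, yet each day 28 library lay above each control, and the change was 6.35 (SE 0.57, adjusted p = 1.4e-05). Without mouse 1 it was 5.48, and with the barcode term 7.29. The predicted gene Gm17268 lies across Ccl2 on the other strand (chr11:82028224-82038562, minus strand) and rose by 8.27 (7.00 without mouse 1 and 9.39 with the barcode term). Whether counting kept the strand is not given in the sources used here, so their reads cannot be told apart. The same holds for Acaa1a, B2m, Bhlhe40, Ccnd2, Col4a1, Cxcl16, Dab2, Dscaml1, Egf, Esrrg, Gss, Il34, Jun, Junb, Masp1, Plxna4, Slc12a1 and Sox4, which are named below and overlap a gene on the other strand that was itself called, and for Ndufb9, which overlaps one on the same strand. Ccl7, a neighbour of Ccl2 on the chromosome, was counted at 0, 5, 0 and 0 UMIs in controls 1 to 4 and 93, 72 and 24 UMIs in day 28 mice 1 to 3 (adjusted p = 0.0017).

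Both macrophage growth factors rose. Il34 had 113, 89.7, 125 and 102 CPM in controls 1 to 4 and 1052, 1050.3 and 1025 CPM in day 28 mice 1 to 3, the highest level of any member of the list, with a spread between mice far below the difference (3.28, SE 0.23, adjusted p = 2.7e-06). Csf1 had 8.93, 5.69, 4.01 and 9.55 CPM in controls 1 to 4 and 36.1, 92.9 and 45 CPM in day 28 mice 1 to 3, and mouse 2 stood highest (3.11, SE 0.38, adjusted p = 9.2e-05). The neutrophil chemokine genes Cxcl2 and Cxcl1 rose by 4.97 (SE 0.40, adjusted p = 6.3e-06) and 2.09 (SE 0.43, adjusted p = 0.0025), Cxcl1 by 1.31 without mouse 1 and 2.97 with the barcode term. Cxcl10, an interferon-induced chemokine gene for T cells, rose by 1.46 (SE 0.32, adjusted p = 0.0037), Cxcl16 by 0.87 and the cytokine gene Lif by 3.06. Cx3cl1, which encodes fractalkine, had 14.8 ± 2.86 CPM in control and 16.3 ± 3.78 CPM at day 28 and did not pass (0.13, SE 0.26, adjusted p = 0.72). Among the falls were the alarmin gene Il33 at -2.28 (SE 0.52, adjusted p = 0.0046), Il15, a survival factor of lymphocytes, at -1.50 and Mif, a cytokine that acts on macrophages, at -2.36. With the barcode term Csf1 was at 2.42 and Lif at 3.78, and Il33 (-1.38, adjusted p = 0.18) and Mif (-1.33, adjusted p = 0.086) no longer passed. Without day 28 mouse 1 Mif was at -3.07, and without nuclei that carried endothelial, stromal or leukocyte genes Il33 was at -3.01.

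The promoters of the chemokine and growth factor genes that rose are shown because 5 of 7 promoters, from 6 of the 11 risen genes, hold a match to the kappa-B type motif, the core of the site read by NF-kB (3 G, 1 A, any 4 bases and 2 C in this order). The window is the 250 bases before the start of the gene in RefSeq (GRCm38.p6), and matches were searched on both strands, overlaps included. The match was in 22.3% of 14355 promoters of tested genes and in 17.6% of all 32851 promoters. TGANTCA, the core read by AP-1, was in 3 of the 7, against 4.76% of the promoters of tested genes. The same search in other members gave a kappa-B type match in 0 of 5 promoters of the adhesion genes that rose, and in 12 of 45 (26.7%) of the transport genes that fell. For AP-1 these were 1 of 5 and 2 of 45. A match describes the letters and shows no binding. Capitals mark matches to the kappa-B type or AP-1 motif, each sequence runs 5′ to 3′ toward the start of the gene, and 4 genes are shown.
Cxcl1 (chr5:90890995-90891244, plus strand): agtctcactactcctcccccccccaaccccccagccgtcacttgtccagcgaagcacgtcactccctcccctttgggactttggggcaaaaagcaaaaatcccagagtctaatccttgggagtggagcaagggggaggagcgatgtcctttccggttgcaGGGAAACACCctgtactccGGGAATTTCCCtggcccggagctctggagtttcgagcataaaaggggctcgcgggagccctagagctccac
Cxcl2 (chr5:90903649-90903898, plus strand): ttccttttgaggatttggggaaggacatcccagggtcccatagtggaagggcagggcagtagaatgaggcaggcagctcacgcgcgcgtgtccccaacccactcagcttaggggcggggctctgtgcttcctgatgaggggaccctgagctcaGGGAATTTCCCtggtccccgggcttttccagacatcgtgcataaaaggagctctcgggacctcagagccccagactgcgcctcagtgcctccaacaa
Csf1 (chr3:107760470-107760719, minus strand): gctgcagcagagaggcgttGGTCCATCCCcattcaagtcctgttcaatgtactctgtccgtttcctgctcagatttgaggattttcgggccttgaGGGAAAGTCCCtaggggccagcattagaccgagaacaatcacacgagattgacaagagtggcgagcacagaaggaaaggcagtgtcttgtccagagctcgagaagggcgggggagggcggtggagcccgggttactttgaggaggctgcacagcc
Cxcl10 (chr5:92348890-92349139, minus strand): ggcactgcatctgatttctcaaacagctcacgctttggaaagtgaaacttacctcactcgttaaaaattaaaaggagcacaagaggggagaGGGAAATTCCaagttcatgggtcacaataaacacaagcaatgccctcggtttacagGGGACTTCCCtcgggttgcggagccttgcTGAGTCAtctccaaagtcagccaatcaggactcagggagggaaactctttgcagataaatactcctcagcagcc
Cxcl1 and Cxcl2 are neighbours on chromosome 5, and each holds the run GGGAATTTCCC, which matches on both strands. Cxcl10 holds matches to both motifs.

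NF-kB is a family of dimeric transcription factors held in the cytoplasm by inhibitors, several of which are themselves its targets. Of 28 genes of its subunits, feedback and receptors, 22 rose and 1 fell, or 78.6% and 3.57%, against 20.2% and 17.6% of all genes. The median was 1.89, and 18 rose and 0 fell with the barcode term. Among the subunits Relb rose by 3.66 (SE 0.37, adjusted p = 2.9e-05), Nfkb1 by 2.73 (SE 0.21, adjusted p = 5.6e-06) and Rela by 1.24, while Nfkb2 did not pass (0.74, SE 0.36, adjusted p = 0.12) but passed with the barcode term (1.37, adjusted p = 0.042). The feedback genes moved in the same direction: Tnfaip3, which encodes the deubiquitinase A20, by 3.09, the inhibitor genes Nfkbie and Nfkbia by 2.94 and 1.07, and Nfkbiz by 2.94. Birc3, a ubiquitin ligase gene that blocks cell death, rose from 14.3 ± 5.05 to 235 ± 73.9 CPM (4.04, SE 0.32, adjusted p = 5.6e-06). Of the receptors, Tnfrsf1b, the second receptor of tumour necrosis factor, rose by 4.57 (SE 0.58, adjusted p = 1.2e-04) and Cd40 by 4.38 (SE 0.64, adjusted p = 3.1e-04). The 1 fall was Chuk, a kinase gene of the pathway (-0.96, SE 0.22, adjusted p = 0.0056), which no longer passed with the barcode term (-0.75, adjusted p = 0.14). Tnfaip3 was at 2.46, Tnfrsf1b at 3.80 and Cd40 at 3.56 with the barcode term. Over the list, the median shift from the control mean on the log2(CPM + 5) scale was 1.05, 1.05 and 1.38 in day 28 mice 1, 2 and 3, against -0.09 to 0.11 in single controls.

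Of 21 complement genes 8 rose and 3 fell, or 38.1% and 14.3%, against 20.2% and 17.6% of all genes. Among the rises were C3, the gene of the central component, at 3.73 (SE 0.37, adjusted p = 2.3e-05), Masp1, a protease gene of the lectin pathway, at 4.69 (SE 0.57, adjusted p = 8.8e-05), and C7 at 3.78. The 3 falls lost their call with the barcode term, where 6 rose and 0 fell. Nuclei that carried at least 2 endothelial, stromal or leukocyte genes made up 0.992% to 1.78%, 0.083% to 1.03% and 0.165% to 0.786% of control nuclei, and 2.55% to 4.08%, 2.55% to 5.87% and 1.34% to 6.01% of day 28 nuclei. The median nucleus held 668 to 1938 UMIs in control and 1185 to 4174 at day 28, and the part of depth in these shares was not tested. Without those nuclei C7 was at 2.54 and still called, and 6 rose and 3 fell in the list, which shares 2 genes with those used to leave out nuclei. Interferon-induced genes rose for 14 of 25 with no fall and a median of 1.16 (7 rose and 0 fell with the barcode term), among them Oasl2, an antiviral gene, at 2.56 (SE 0.35, adjusted p = 2.0e-04) and Parp14 at 2.19 (SE 0.30, adjusted p = 2.1e-04). Genes of MHC class I and peptide loading rose for 7 of 18, with the regulator gene Nlrc5 at 2.94 (SE 0.33, adjusted p = 5.4e-05), and fell for 2 (7 rose and 0 fell with the barcode term, and 5 rose and 2 fell without those nuclei). B2m, the light chain of class I, did not pass (-0.37, SE 0.28, adjusted p = 0.32), but fell without day 28 mouse 1 (-0.78, adjusted p = 0.018). Masp1 was at 3.84, Parp14 at 1.59 and Nlrc5 at 2.32 with the barcode term.

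Of 38 cell death genes 15 rose and 7 fell, or 39.5% and 18.4%, against 20.2% and 17.6% of all genes, with a median of 0.18. With the barcode term 8 rose and 2 fell, or 21.1% and 5.26%, against 8.48% and 7.32%. Casp4, the caspase that senses bacterial lipid in the cytosol, rose from 1.34 ± 0.596 to 70.8 ± 17.5 CPM (5.77, SE 0.36, adjusted p = 1.3e-06), Gsdmd, the pore former of pyroptosis, by 4.61 (SE 0.57, adjusted p = 9.9e-05) and 5.33 without control 1, and Mlkl, the executor of necroptosis, by 3.34 (SE 0.37, adjusted p = 5.3e-05). Casp12 rose by 4.82. Without nuclei that carried endothelial, stromal or leukocyte genes Gsdmd was at 5.47 and Casp12 at 5.73. Of mitochondrial apoptosis genes Cycs, the cytochrome c gene, fell by 2.44, while Apaf1, whose product cytochrome c activates, rose by 1.54. Cycs was at -3.44 without day 28 mouse 1 and at -1.34 with the barcode term (adjusted p = 0.1). Nlrp6, an inflammasome sensor gene of epithelia, fell by 2.69 (SE 0.25, adjusted p = 1.5e-05).

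AP-1 and immediate early genes, which include early-response transcription factors, rose for 15 of 23 members and fell for 2. These were 65.2% and 8.7%, against 20.2% and 17.6% of all genes, and 15 rose and 1 fell with the barcode term. The median was 1.61. Egr1 rose by 3.77 (SE 0.47, adjusted p = 1.1e-04) and 4.48 without control 1, Atf3, a stress-response gene, by 3.56 (SE 0.44, adjusted p = 1.0e-04), Klf4 by 3.77 (SE 0.43, adjusted p = 5.9e-05), Maff by 3.39, Fosl2 by 3.02 and Klf6, a zinc finger gene of acute injury, by 2.69. Jun, Junb and Jund rose by 1.40, 1.98 and 1.85, Junb by 1.34 without day 28 mouse 1 and 2.81 with the barcode term, where Egr1 was at 3.15. The larger of the 2 falls was that of Maf, a factor of the mature proximal tubule (-1.88, SE 0.30, adjusted p = 5.4e-04). Per library the list stood at 1.27, 0.64 and 0.71 in mice 1, 2 and 3 (median log2 shift from the control mean) and at -0.11 to 0.07 in controls, with mouse 1 highest.

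Of 34 genes known from the embryonic nephron 17 rose and 2 fell, or 50% and 5.88%, against 20.2% and 17.6% of all genes. The median was 0.96, and 13 rose and 0 fell with the barcode term. Runx1, a transcription factor gene (chr16:92601466-92826149, minus strand), had 4.76, 1.31, 1.74 and 3.18 CPM in controls 1 to 4 and 194, 199.7 and 172 CPM in day 28 mice 1 to 3, with no overlap (6.10, SE 0.37, adjusted p = 9.9e-07). Sox4 rose from 4.66 ± 1.87 to 75.4 ± 29.2 CPM (4.08, SE 0.35, adjusted p = 9.7e-06). Wt1, a factor of nephron progenitors and podocytes, rose by 3.37 (SE 0.29, adjusted p = 9.5e-06), Meis1 by 2.87, Prom1, which encodes CD133, by 2.17, and the Notch ligand gene Jag1 by 2.32 (SE 0.38, adjusted p = 6.0e-04). Pax8, which specifies the renal lineage, rose by 0.80, but no longer passed with the barcode term (0.67, adjusted p = 0.15) or without day 28 mouse 2 (0.65, adjusted p = 0.067). The 2 falls of this list lost their call with the barcode term, and Jag1 was at 1.68.

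TGF-beta is released from a latent complex in the matrix and signals through paired receptors to Smad proteins. Of 36 genes of this family 20 rose and 2 fell, or 55.6% and 5.56%, against 20.2% and 17.6% of all genes. The median was 1.05, and 10 rose and 1 fell with the barcode term. Among ligands Tgfb2 rose from 1.12 ± 0.897 to 66.3 ± 20.3 CPM (5.68, SE 0.42, adjusted p = 4.4e-06) and Tgfb1 by 3.25 (SE 0.35, adjusted p = 4.0e-05), while Bmp7, a ligand of tubule repair, fell by 0.95. Of the binding proteins Ltbp1 rose by 3.83 (SE 0.28, adjusted p = 3.9e-06) and 4.46 without nuclei that carried endothelial, stromal or leukocyte genes. Of the receptors Tgfbr2 rose by 1.63 and Tgfbr3 by 1.94. The feedback gene Smad7 rose by 1.67 (0.67 with the barcode term, adjusted p = 0.17). Smad3, the main signal carrier, had 147 ± 28.4 CPM in control and 229 ± 102 CPM at day 28 and did not pass (0.64, SE 0.30, adjusted p = 0.11), but rose without day 28 mouse 1 (0.97, adjusted p = 0.0032) and without scaling factors (0.86, adjusted p = 0.034).

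Among other growth factors 14 of 36 ligand and receptor genes rose and 6 fell, or 38.9% and 16.7%, against 20.2% and 17.6% of all genes. With the barcode term 7 rose and 4 fell, or 19.4% and 11.1%, against 8.48% and 7.32%. Pdgfd, a ligand of the PDGF receptor of pericytes and fibroblasts, had 92.7, 41.6, 31.7 and 29.2 CPM in controls 1 to 4 and 967, 1430.4 and 1313 CPM in day 28 mice 1 to 3. Each day 28 library stood far above the highest control, and the change was 4.65 (SE 0.39, adjusted p = 9.2e-06). Pdgfb rose by 2.97 (SE 0.21, adjusted p = 2.7e-06) and Pdgfa by 0.94. Of the EGF receptor ligands Areg rose by 3.55 (SE 0.48, adjusted p = 1.8e-04) and Tgfa by 2.42 (SE 0.55, adjusted p = 0.0049), and Egf itself did not pass (-0.54, SE 0.39, adjusted p = 0.3). Tgfa was at 3.47 without control 1, and with the barcode term it no longer passed (2.01, adjusted p = 0.1). Vegfa, which sustains peritubular capillaries, fell by 1.90 (SE 0.20, adjusted p = 3.4e-05), and Fgfr3 by 2.26 (SE 0.24, adjusted p = 4.0e-05). Hippo pathway genes and targets of its effector YAP rose for 14 of 25 with no fall (6 rose and 0 fell with the barcode term), among them Ankrd1 at 3.88 (SE 0.53, adjusted p = 1.8e-04) and 3.30 without mouse 1, Axl at 3.00 and Amotl1 at 2.84. Ankrd1 was at 4.68 and Axl at 2.17 with the barcode term. Wnt genes rose for 9 of 31 and fell for 4, or 29% and 12.9%, against 20.2% and 17.6% of all genes. With the barcode term 3 rose and 2 fell, or 9.68% and 6.45%, against 8.48% and 7.32%. Named members were the receptor gene Lrp5 at 1.81 (SE 0.29, adjusted p = 5.4e-04) and the frizzled gene Fzd1 at -2.62 (SE 0.40, adjusted p = 3.8e-04).

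Genes of the basement membrane rose for 21 of 36 members and fell for 4, or 58.3% and 11.1%. Of all genes 20.2% rose and 17.6% fell. The median of the list was 1.13, and 12 rose and 3 fell with the barcode term. Fn1, the fibronectin gene, rose by 3.51 (SE 0.34, adjusted p = 2.3e-05), the laminin gene Lama4 by 3.55 (SE 0.35, adjusted p = 2.3e-05), Nid1, which links laminin to collagen, by 2.99 (SE 0.28, adjusted p = 1.8e-05), and Col4a1, a chain of the common collagen IV network, by 1.91. The protease gene Mmp14 rose by 3.64 (SE 0.43, adjusted p = 7.1e-05). Col4a3 and Col4a4, chains of the glomerular network, did not pass (-0.46 and -0.28). Integrin genes, the receptors of these proteins, rose for 11 of 17 with no fall (6 rose and 0 fell with the barcode term), with Itga9 at 3.01 (SE 0.32, adjusted p = 3.5e-05), the fibronectin receptor gene Itga5 at 1.99 (SE 0.33, adjusted p = 6.2e-04) and Itgav at 1.76. Itgb6, which pairs with it to free TGF-beta, had 604 ± 157 CPM in control and 933 ± 207 CPM at day 28 and did not pass (0.63, SE 0.25, adjusted p = 0.065), but passed without control 3 (0.78, adjusted p = 0.022), without day 28 mouse 1 (0.74, adjusted p = 0.041) and without scaling factors (0.89, adjusted p = 0.0028). Col4a1 was at 1.29 and Itga9 at 2.32 with the barcode term. Without nuclei that carried endothelial, stromal or leukocyte genes, 17 rose and 4 fell among basement membrane genes and 10 rose and 0 fell among integrins.

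Of 32 cell junction genes 12 rose and 6 fell, or 37.5% and 18.8%, against 20.2% and 17.6% of all genes (6 rose and 4 fell with the barcode term). Cdh6, a cadherin of the early proximal tubule, rose from 32.1 ± 16.2 to 544 ± 77.2 CPM (4.08, SE 0.34, adjusted p = 7.3e-06), and Cdh2, which encodes N-cadherin, by 2.71 (SE 0.34, adjusted p = 1.1e-04). The connexin genes Gjb2 and Gjb1, whose products join cells of this segment by gap junctions, fell by 3.56 (SE 0.37, adjusted p = 3.3e-05) and 2.64 (SE 0.36, adjusted p = 2.1e-04). Cdh2 was at 1.96 and Gjb1 at -3.27 with the barcode term. Axon guidance and synapse genes rose for 24 of 51 and fell for 4, with a median of 1.07 (16 rose and 2 fell with the barcode term). Their examples were Efnb2, an ephrin gene, at 3.65 (SE 0.33, adjusted p = 1.5e-05) and Plxna4, a semaphorin receptor gene, at 3.40 (SE 0.32, adjusted p = 1.9e-05), and among the falls was Dscaml1 at -3.28 (SE 0.25, adjusted p = 5.1e-06). Genes of this list are long, with a median span of 444 kb, against 14.6 kb for the respiratory chain genes below. The members tested had median shifts of 0.78, 0.41 and 0.89 in mice 1, 2 and 3.

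**Figure D3:**
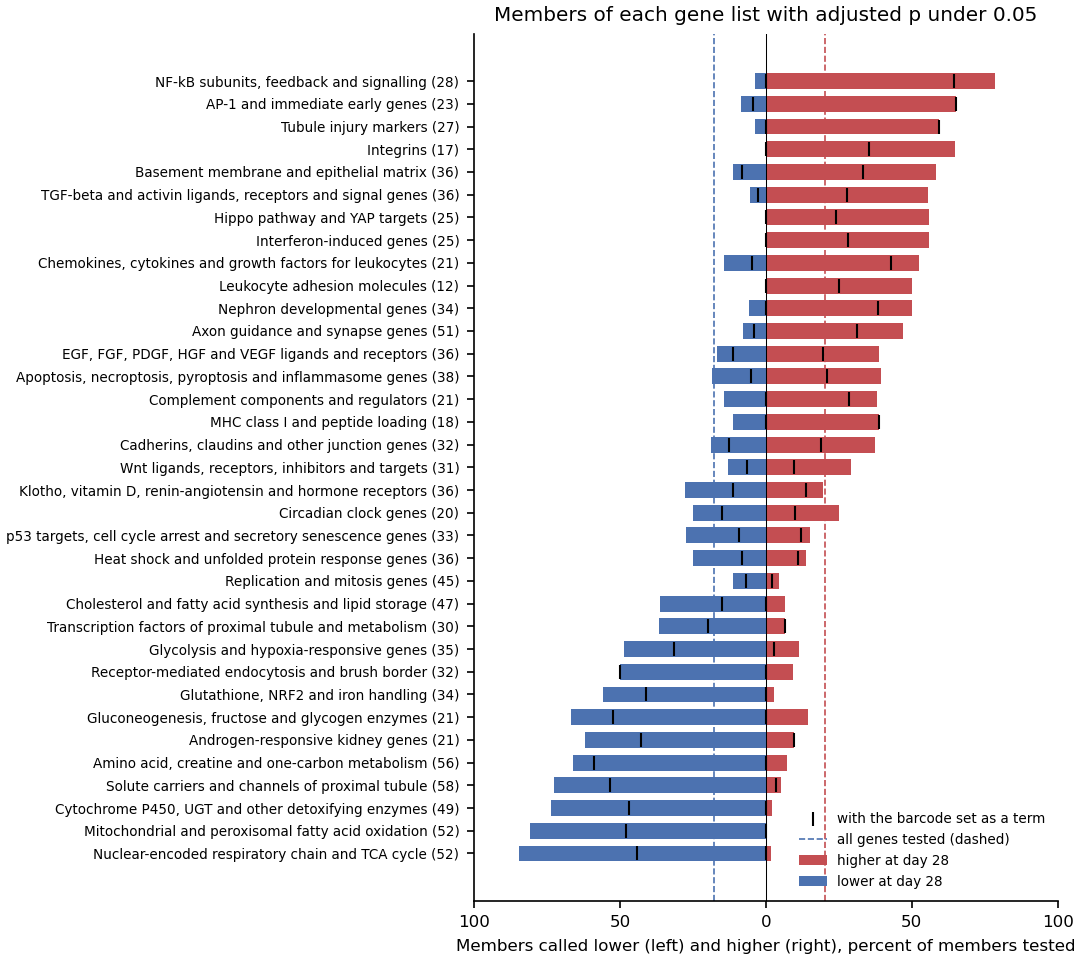
Share of the tested members of 35 gene lists that were higher (red, to the right) or lower (blue, to the left) at day 28, with the number tested in parentheses. Black ticks give the share with the barcode set as a term, and dashed lines the share of all genes, 20.2% and 17.6%. Of the lists shown, NF-kB genes reach furthest to the right and respiratory chain genes furthest to the left. The mitochondrially encoded genes and the cell type markers are not among them.

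Among transcription factors of the mature proximal tubule 11 of 30 members fell and 2 rose, or 36.7% and 6.67%. Of all genes 17.6% fell and 20.2% rose. The median of the list was -0.39, and 2 rose and 6 fell with the barcode term. Without scaling factors 7 fell and 6 rose. Hnf4a, which maintains proximal tubule identity (chr2:163506808-163572910, plus strand), had 174, 218, 233 and 223 CPM in controls 1 to 4 and 93.2, 129 and 160.0 CPM in day 28 mice 1 to 3. The groups did not overlap, and the fall was small (-0.73, SE 0.22, adjusted p = 0.02). The call ended without day 28 mouse 2 (-0.74, adjusted p = 0.063) and without scaling factors (-0.48, adjusted p = 0.065). Ppara, the fatty acid sensor that drives oxidation genes, had 435, 392, 674 and 437 CPM in controls 1 to 4 and 188, 243 and 167 CPM in day 28 mice 1 to 3 (-1.28, SE 0.26, adjusted p = 0.0026), and control 3 stood highest. Esrra, a regulator of mitochondrial genes, fell by 1.49 (SE 0.22, adjusted p = 3.1e-04), whereas Esrrg, its relative, had 3185 ± 657 CPM in control and 3961 ± 883 CPM at day 28 and did not pass (0.31, SE 0.25, adjusted p = 0.35, and 0.58 with adjusted p = 0.023 without scaling factors). The rises were the nuclear receptor genes Nr1i2, a sensor of foreign chemicals, at 2.56 (SE 0.31, adjusted p = 9.3e-05) and Pparg, a lipid storage regulator, at 2.25 (SE 0.46, adjusted p = 0.0024).

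Solute carriers of the proximal tubule fell for 42 of 58 members and rose for 3, or 72.4% and 5.17%. Of all genes 17.6% fell and 20.2% rose. The median of the list was -1.33, and 2 rose and 31 fell with the barcode term. Slc34a1, the main sodium-phosphate cotransporter (chr13:55398187-55415592, plus strand), had 3787, 4713, 4705 and 4514 CPM in controls 1 to 4 and 858, 399.6 and 847 CPM in day 28 mice 1 to 3. Each day 28 library lay far below the lowest control, and the change was -2.66 (SE 0.30, adjusted p = 5.8e-05). The neutral amino acid carrier gene Slc6a19 fell by 3.44 (SE 0.37, adjusted p = 4.3e-05), the water channel gene Aqp1 by 3.07 (SE 0.33, adjusted p = 4.5e-05), the lactate carrier gene Slc5a12 by 2.74 on the log2 scale, the glucose carrier gene Slc5a2 by 2.46 and the organic anion carrier gene Slc22a6 by 2.63. The rises were Slc7a12, an amino acid carrier gene, at 3.12 (SE 0.49, adjusted p = 4.9e-04) and 2.46 without mouse 1, and the efflux pump genes Abcc4 at 2.45 (SE 0.30, adjusted p = 8.5e-05) and Abcb1a at 1.86 (SE 0.57, adjusted p = 0.023). Abcb1a no longer passed with the barcode term (1.69, adjusted p = 0.2), without control 1 (1.73, adjusted p = 0.051) or without day 28 mouse 2 (1.90, adjusted p = 0.062) or mouse 3 (1.77, adjusted p = 0.082). Aqp1 was at -2.47, Slc22a6 at -2.01, Slc7a12 at 3.97 and Abcc4 at 1.61 with the barcode term.

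By receptor-mediated endocytosis the tubule takes back filtered protein. Of 32 genes of this uptake 16 fell and 3 rose, or 50% and 9.38%, against 17.6% and 20.2% of all genes. With the barcode term 0 rose and 16 fell. Lrp2, which encodes megalin (chr2:69424340-69586065, minus strand), had 1304, 1549, 2113 and 1379.8 CPM in controls 1 to 4 and 625, 607 and 425 CPM in day 28 mice 1 to 3, with no overlap (-1.52, SE 0.25, adjusted p = 6.8e-04). Its partners fell with it, with Cubn at -1.81 (SE 0.31, adjusted p = 8.8e-04), Amn at -3.02 (SE 0.48, adjusted p = 5.0e-04) and the adaptor gene Dab2 at -1.84. Without day 28 mouse 1 Amn was at -3.97, and with the barcode term at -1.98. The brush border enzyme gene Ggt1 fell by 2.38 (SE 0.31, adjusted p = 1.4e-04). None of the 3 rises held with the barcode term.

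Most genes of fatty acid oxidation, the main fuel path of this segment, were lower. Of 52 mitochondrial and peroxisomal genes 42 fell and 0 rose, or 80.8% and 0%, against 17.6% and 20.2% of all genes. The median was -1.55, and 0 rose and 25 fell with the barcode term. Acaa1b, a peroxisomal thiolase gene with a close copy in Acaa1a, fell from 512 ± 281 to 41.5 ± 21.8 CPM (-3.65, SE 0.45, adjusted p = 1.0e-04). Nuclear genes of the respiratory chain and the TCA cycle fell for 44 of 52 and rose for 1, with a median of -1.27 (0 rose and 23 fell with the barcode term). The respiratory chain gene Ndufa4 fell from 201 ± 72.6 to 25.5 ± 17.2 CPM (-3.03, SE 0.45, adjusted p = 3.3e-04), Ndufb9 was at -3.03 (SE 0.46, adjusted p = 3.9e-04) and the complex IV gene Cox6c at -3.08 (SE 0.55, adjusted p = 0.0011). Without day 28 mouse 1 these were at -3.68, -3.73 and -3.94. Acaa1b was at -2.94, Ndufa4 at -2.15, Ndufb9 at -2.03 and Cox6c at -2.06 with the barcode term. Ogdh, a TCA cycle gene, did not pass (-0.31, SE 0.19, adjusted p = 0.23).

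Transcripts made inside mitochondria took 0.0900%, 0.147%, 0.200% and 0.0818% of UMIs in controls 1 to 4, and 0.0716%, 0.00857% and 0.00981% in day 28 mice 1, 2 and 3. Mouse 1, which shares the v2 barcodes, lay near the lowest control and far above the other two mice. All 12 members tested were lower, against 17.6% of all genes, with a median of -3.14. With the barcode term 0 rose and 1 fell, or 8.33%, near the 7.32% of all genes. In mouse 1 alone the respiratory chain list stood at -0.94 and the fatty acid list at -1.19 (median log2 shift from the control mean), while single controls ran from -0.27 to 0.16 and from -0.26 to 0.23. These transcripts lie outside the nucleus, and their part in the falls of short nuclear genes was not tested.

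**Figure D4:**
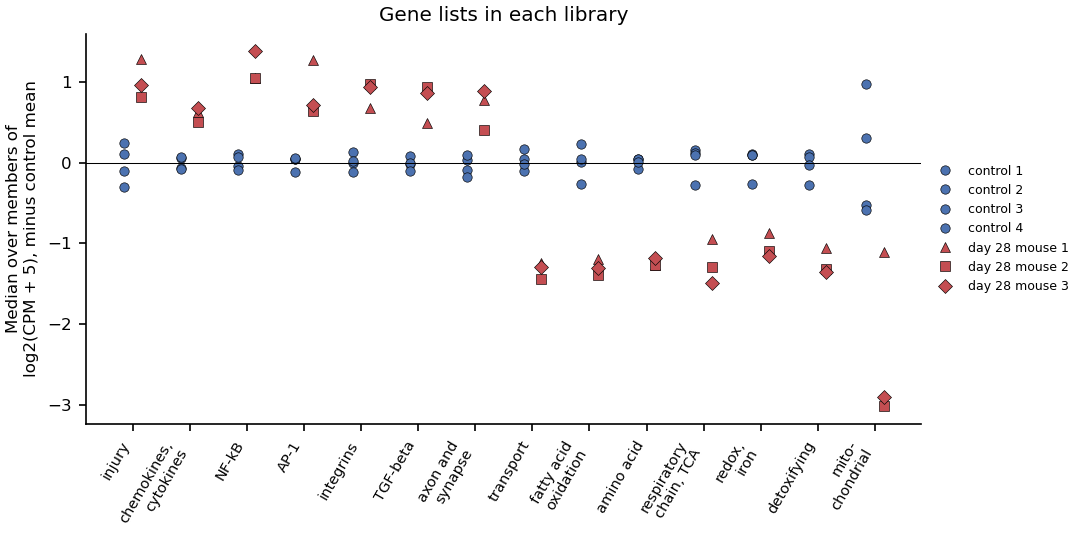
Median over the tested members of 14 gene lists of log2(CPM + 5) minus the control mean (vertical axis), for each library. Controls are blue circles and day 28 mice 1, 2 and 3 a red triangle, square and diamond. The 3 day 28 mice stand on the same side of all controls in each list shown, and the mitochondrially encoded list parts mouse 1 at -1.10 from mice 2 and 3 at -3.02 and -2.90.

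In the other metabolic lists more members fell than rose. They are read against the 20.2% and 17.6% of all genes that rose and fell (8.48% and 7.32% with the barcode term). Amino acid, creatine and one-carbon genes fell for 37 of 56 and rose for 4 (0 rose and 33 fell with the barcode term), with Hdc, the histamine-making enzyme gene, at -4.37 (SE 0.55, adjusted p = 1.1e-04) and Aadat, an enzyme gene of lysine and kynurenine breakdown, at -3.48 (SE 0.32, adjusted p = 1.5e-05). Genes of glucose synthesis and fructose use fell for 14 of 21 and rose for 3 (0 rose and 11 fell with the barcode term), among them Khk, the fructokinase gene, at -3.62 (SE 0.36, adjusted p = 2.3e-05) and the glucose-6-phosphate carrier gene Slc37a4 at -2.49 (SE 0.30, adjusted p = 8.9e-05). Glycolysis genes fell for 17 of 35 and rose for 4 (1 rose and 11 fell with the barcode term), with Aldoa at -2.54 (SE 0.39, adjusted p = 4.5e-04) and -3.20 without mouse 1, and Tpi1 at -2.48 (SE 0.30, adjusted p = 8.5e-05). Among the 4 rises was Hk2, the hexokinase of growing and injured cells, counted at 0, 12, 0 and 0 UMIs in controls 1 to 4 and 86, 174 and 130 UMIs in day 28 mice 1 to 3 (adjusted p = 5.8e-04). All of its control UMIs came from control 2. Detoxifying enzyme genes fell for 36 of 49 and rose for 1 (0 rose and 23 fell with the barcode term), with Ugt3a1 at -3.64 (SE 0.36, adjusted p = 2.4e-05). Hdc was at -5.83, Khk at -2.87, Aldoa at -1.65 and Ugt3a1 at -2.91 with the barcode term.

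Iron and redox genes were among the most abundant falls. Fth1, the ferritin heavy chain gene (chr19:9980598-9985098, plus strand), had 1372, 1479, 2597 and 1666 CPM in controls 1 to 4 and 224, 97.7 and 89.3 CPM in day 28 mice 1 to 3, and the highest day 28 library was mouse 1 (-3.71, SE 0.39, adjusted p = 3.7e-05). Gpx3, a secreted glutathione peroxidase gene, fell from 2886 ± 637 to 214 ± 157 CPM (-3.76, SE 0.49, adjusted p = 1.4e-04, and -4.53 without mouse 1). Sod1 fell by 2.96 (SE 0.29, adjusted p = 2.1e-05) and Prdx5 by 3.10 (SE 0.40, adjusted p = 1.2e-04). Of 34 members 19 fell and 1 rose, or 55.9% and 2.94%, against 17.6% and 20.2% of all genes (0 rose and 14 fell with the barcode term). Fth1 was at -2.99, Gpx3 at -2.88 and Prdx5 at -2.32 with the barcode term. Gclm and Gss, genes of glutathione synthesis, had changes of -0.50 and -0.34 and did not pass. Gclm passed without control 4 (-0.59, adjusted p = 0.04) and without day 28 mouse 1 (-0.62, adjusted p = 0.042). Lipid synthesis and storage genes fell for 17 of 47 and rose for 3, or 36.2% and 6.38%. With the barcode term 7 fell and 0 rose, or 14.9% and 0%, against 7.32% and 8.48% of all genes.

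Of 36 hormone genes 7 rose and 10 fell, or 19.4% and 27.8%, against 20.2% and 17.6% of all genes (5 rose and 4 fell with the barcode term). Kl, which encodes klotho, the co-receptor of the phosphate hormone FGF23 (chr5:150952607-150993817, plus strand), had 335, 374, 479 and 375 CPM in controls 1 to 4 and 113, 173 and 109.7 CPM in day 28 mice 1 to 3, with no overlap (-1.57, SE 0.23, adjusted p = 3.3e-04). Cyp27b1, the enzyme gene that makes active vitamin D, rose by 2.23 (SE 0.49, adjusted p = 0.004). Of the renin-angiotensin genes, Mas1, the receptor of angiotensin 1-7, fell by 4.09 (SE 0.56, adjusted p = 2.0e-04) and Agtr1a by 2.09 (SE 0.27, adjusted p = 1.2e-04). The calcitonin receptor gene Calcr rose by 3.07 (SE 0.41, adjusted p = 1.5e-04) and the prostaglandin receptor gene Ptger4 by 3.29 (SE 0.37, adjusted p = 5.8e-05). Mas1 was at -3.44 with the barcode term. The median of the list was -0.04 and changed sign without scaling factors (0.24). Androgen-responsive genes fell for 13 of 21 and rose for 2 (2 rose and 9 fell with the barcode term), with Cyp2d9 at -3.19 (SE 0.29, adjusted p = 1.5e-05), one of a family of close copies. Sex-linked genes did not pass in any of 4 members tested.

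Lists of division, arrest, circadian rhythm and folding are read against the 20.2% and 17.6% of all genes that rose and fell. Replication and mitosis genes rose for 2 of 45 and fell for 5, or 4.44% and 11.1% (1 rose and 3 fell with the barcode term), with Ccna2, a cyclin gene, at -3.74 (SE 0.42, adjusted p = 5.4e-05) and Kif20b at -1.77 (SE 0.31, adjusted p = 9.1e-04). Genes of p53, arrest and secretory senescence rose for 5 of 33 and fell for 9, or 15.2% and 27.3% (4 rose and 3 fell with the barcode term). Of them Cdkn1a, the cell cycle inhibitor p21, did not pass (0.24, SE 0.51, adjusted p = 0.74), Plk3 fell by 2.69 (SE 0.36, adjusted p = 1.8e-04), and Ccnd2 and Ccnd3 rose by 2.88 and 1.77. Circadian genes rose for 5 of 20 and fell for 5, or 25% and 25% (2 rose and 3 fell with the barcode term), with Bhlhe40 at 2.20 (SE 0.22, adjusted p = 2.3e-05) and Tef at -1.57 (SE 0.22, adjusted p = 2.5e-04); the hour of harvest is not given in the sources used here. Heat shock and folding genes rose for 5 and fell for 9 of 36, or 13.9% and 25% (4 rose and 3 fell with the barcode term). Hspb1, a small heat shock gene, rose by 3.19 (SE 0.69, adjusted p = 0.0035) and by 1.66 without mouse 1, and Hspa8 fell by 2.61 (SE 0.48, adjusted p = 0.0014) and by 3.53 without mouse 1. Ccnd3 was at 1.03, Hspb1 at 4.46 and Hspa8 at -1.61 with the barcode term. Cdkn1a was at 1.20 in that fit and did not pass.

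Markers of cell types were set beside these results, as the summed share of a library's UMIs. Their counts are read against the 20.2% and 17.6% of all genes that rose and fell (8.48% and 7.32% with the barcode term). The 14 proximal tubule markers took 1.70% to 2.12% in control and 0.342% to 0.738% at day 28, with means of 1.99% ± 0.198 and 0.504% ± 0.208, and 13 of 14 fell (0 rose and 12 fell with the barcode term). Podocyte and parietal markers rose for 7 of 13, from 0.127% ± 0.0360 to 0.334% ± 0.0160, and stromal markers for 9 of 20, from 0.0152% ± 0.00570 to 0.0479% ± 0.00286. With the barcode term 7 rose and 0 fell among podocyte and parietal markers and 6 rose and 0 fell among stromal markers. For these 3 lists the groups did not overlap and the two-sided exact permutation p was 0.0571, the smallest that 35 splits allow, with an adjusted p of 0.19 over 10 lists, so no list could pass. The podocyte and parietal members that rose included Wt1 (3.37), Thsd7a (3.02, SE 0.20, adjusted p = 2.1e-06), Ncam1 (2.83, SE 0.33, adjusted p = 7.5e-05) and Synpo (2.67, SE 0.29, adjusted p = 4.2e-05). Of the 13 members 6 were not called, among them Clic5 and Podxl. The podocyte gene Nphs1, which encodes nephrin of the filtration slit, had 4.26 ± 1.43 CPM in control and 5.74 ± 6.54 CPM at day 28 and did not pass (adjusted p = 0.83). With the barcode term Nphs1 was at 1.54 and did not pass. Endothelial markers took 0.00970% to 0.0186% in control and 0.0174% to 0.0297% at day 28 (exact permutation p = 0.114), and leukocyte markers 0.0227% to 0.0291% and 0.0284% to 0.0390% (exact permutation p = 0.114). Each marker of these lists that is in both tables had a UMI in some control, and 1 stromal marker had none at day 28.

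Among stromal markers Pdgfra rose by 2.98 (SE 0.49, adjusted p = 6.6e-04) and Col1a2 by 2.69 (SE 0.54, adjusted p = 0.0022), and among leukocyte markers Ikzf1 by 2.44 (SE 0.37, adjusted p = 3.8e-04). Pdgfra, Col1a2 and Ikzf1 are themselves among the genes by which nuclei of such cells were left out, so that their levels fall with that step by its construction. Without nuclei that carried at least 2 such genes, Pdgfra was at 0.79 (adjusted p = 0.57) and Col1a2 at 0.64 (adjusted p = 0.57), and the counts were 22 rose and 1 fell for NF-kB genes, 10 rose and 3 fell for chemokine genes, 16 rose and 1 fell for injury genes, 5 rose and 1 fell for adhesion genes, 0 rose and 41 fell for fatty acid oxidation genes and 3 rose and 42 fell for transport genes. Over all genes 2962 rose and 2672 fell without those nuclei.

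Marker shares of the other nephron segments overlapped between groups. Thick ascending limb markers took 0.146% ± 0.0706 of control UMIs and 0.145% ± 0.0568 of day 28 UMIs (exact permutation p = 0.857), and distal and connecting tubule markers 0.251% ± 0.0753 and 0.246% ± 0.0769 (exact permutation p = 0.914). In both lists the difference was far below the spread between mice. Slc12a1, the salt carrier gene of the thick ascending limb, had 561 ± 401 CPM in control and 659 ± 258 CPM at day 28 and did not pass (0.23, SE 0.43, adjusted p = 0.71), though it passed without control 1 (0.86, adjusted p = 0.049), and Egf had 387 ± 234 CPM in control and 267 ± 117 CPM at day 28 and did not pass. Cldn10, a claudin gene of that segment, fell by 0.88 (SE 0.24, adjusted p = 0.011). Of the distal markers Trpm6, which encodes a channel for magnesium, rose from 21.2 ± 9.01 to 165 ± 48.7 CPM (2.94, SE 0.30, adjusted p = 3.2e-05), while Wnk4, a kinase gene of salt handling, fell by 1.42 (SE 0.27, adjusted p = 0.0014). Collecting duct markers took 0.0194% ± 0.00779 and 0.0203% ± 0.00893 (exact permutation p = 0.857), a low share in both groups.

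**Figure D5:**
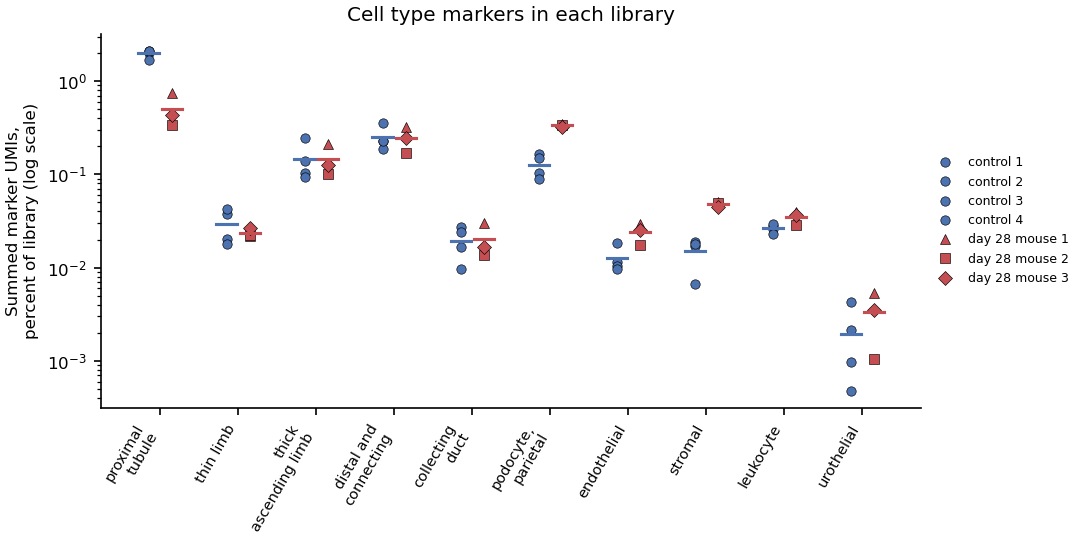
Summed UMIs of cell type markers as percent of all UMIs of a library (log axis) for 10 marker lists, with a bar at the mean of each group. Controls are blue circles and day 28 mice 1, 2 and 3 a red triangle, square and diamond. Proximal tubule, podocyte and stromal lists do not overlap between groups, and the thick ascending limb, distal and collecting duct lists do.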

How the data were processed

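Nuclei of GFP-positive kidney cells were profiled with droplet single-nucleus RNA-seq, 1 library per mouse. The authors deposited UMI counts, not normalized, in one table for control nuclei and another for nuclei after injury. Cell Ranger, STAR, Seurat and the build mm10 are named in the submitters' processing notes. Versions, cell filters, doublet removal and strand use: not given in the sources used here. The tables list 17455 and 19342 genes. The 16939 genes in both were used, and genes of 1 table alone held 0.024% to 0.229% of the UMIs of a library.

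Counts were summed over all nuclei of each library and tested with edgeR 4.0.16 (R 4.3.3; filterByExpr, TMM factors, quasi-likelihood F test, Benjamini-Hochberg over all genes tested, threshold 0.05). All 9 libraries were in 1 fit with the groups control, day 28 and day 7, and the contrast was day 28 minus control. The standard error is the size of the log2 change divided by the square root of F. No gene set was tested: lists are given by counts and medians. Marker lists were compared as summed shares by exact permutation over the 7 libraries. On simulated counts for 14927 genes the fit called 26.3% of 2-fold and 83% of 4-fold changes, none in the wrong direction, and 3 of 14728 unchanged genes. Only 99 and 100 genes were changed there, up and down alike, with no effect of barcode set. In the data 37.8% of genes were called, so these rates need not hold for this comparison. With 1 library per mouse, p-values measure the spread between these mice. Libraries shared at most 26 cell barcodes with one another.

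The members and gene lists were chosen with earlier results of these data known. Named genes are 19 key genes, the 10 largest rises and falls (at least 20 CPM in the higher group, at least 10 UMIs in each of its libraries, no overlap), and per list up to 4 called and 2 other members. Some genes of that rule with unstable calls are counted but not named, a few others are not reported here, and members named beyond it were chosen after their values were seen. Alternatives were DESeq2 size factors, DESeq2 1.42.0, other count filters, single libraries left out, a replicate block, the barcode set as a term, v2 barcodes alone, nuclei with at least 1000 UMIs, nuclei thinned to 1000 UMIs, nuclei with endothelial, stromal or leukocyte genes left out, Malat1 and mitochondrial genes left out, and genes of either table. The fit without scaling factors was chosen after seeing the data. Coordinates are those of GENCODE M21 (GRCm38, the build mm10). The motif window had been set to reach 50 bases past the start and was cut to the 250 bases before it.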

Additional observations from a re-analysis of the deposited data

Results flagged for a closer look

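For each named gene and each marker list, the 4 controls were examined for a library that stood apart from the others by Dixon's ratio at its critical value for 4 samples. Of 206 sets of 4 values 12 passed, and chance gives about 1 in 20. Control 1, the mouse without surgery, stood highest for Egf at 737.8 CPM, for the ephrin gene Efnb2 at 9.08 CPM and for Traf1 at 0.744 CPM. Control 2 held the highest Ccl7 level at 1.09 CPM and the only Hk2 signal at 2.62 CPM. Control 3 was lowest for Cd44 at 0.936 CPM, for Tnfaip3 at 3.34 CPM and for the stromal markers at 0.00668% of UMIs, and highest for Ppara at 674 CPM. Control 4, the shallowest library, was highest for Cx3cl1 at 19.1 CPM, for Lrp5 at 16.4 CPM and for Slc7a12 at 19.6 CPM. The 3 day 28 libraries are too few for this check.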

How the results depend on the processing

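Counts of genes called higher and lower were within 1.5 times the main 3083 and 2694 with DESeq2 size factors (3195 and 2647), DESeq2 (3496 and 3010), no count filter (3021 and 2623), at least 10 UMIs (2760 and 2731), 7 libraries (2707 and 2457), deep nuclei (3228 and 2480), thinned nuclei (2778 and 2228), no endothelial, stromal or leukocyte nuclei (2962 and 2672), no Malat1 or mitochondrial genes (2990 and 2780), either table (3452 and 2738) and no scaling factors (4416 and 1829). They moved further with the barcode set as a term (1295 and 1118), in v2 libraries alone (699 and 517) and with the replicate block (1740 and 1684). Leaving out single libraries gave 2178 to 3669 higher and 1870 to 3254 lower genes. No main call was called in the opposite direction under any of these. The v2 comparison has 1 day 28 library, whose spread is assumed to be that of the others. The replicate numbers do not pair the mice: the deviations of libraries with the same number correlated at -0.225, -0.142 and 0.004.

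Genes that did not pass changed sign as follows. With the barcode term and in v2 libraries alone B2m was at 0.23 and 0.24, Egf at 0.04 and 0.05, Esrrg at -0.07 and -0.06 and Smad3 at -0.41 and -0.40. Without single libraries Cdkn1a ran from -0.43 to 0.65, Cx3cl1 from -0.03 to 0.30, Lcn2 from -0.23 to 1.19, Nphs1 from -0.89 to 0.90 and Slc12a1 from -0.13 to 0.86, where it passed. Cx3cl1 and Nphs1 were at -0.09 and -0.22 without nuclei of other types, and Nphs1 at -0.58 with the replicate block and -0.03 in thinned nuclei. The share of UMIs, day 28 minus control, ran without single libraries from -0.0327 to 0.0334 percentage points for thick ascending limb markers, from -0.0432 to 0.0337 for distal markers and from -0.00414 to 0.00421 for collecting duct markers, and the other marker lists kept their sign. Alcam, Gclm and Itgb6, which did not pass, passed with DESeq2 (0.57, -0.48 and 0.64). Alcam also passed in thinned nuclei (0.65), and Itgb6 with DESeq2 size factors (0.64) and in deep nuclei (0.69). In thinned nuclei Anxa1 lost its call (1.81), Abcb1a was not tested, and the changes of Areg (2.89), Ccna2 (-5.79), Casp4 (6.78), Ccl2 (7.12), Fn1 (4.19), Fzd1 (-3.22), Gsdmd (5.37), Ltbp2 (6.17), Pdgfra (3.57) and Tgfa (3.03) moved by over 1.5 times. The cause was not tested in any of these. Depth limits control 4 and day 28 mouse 1 most.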

Other observations

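Some lists belong to none of the groups above. They are read against the 20.2% and 17.6% of all genes that rose and fell (8.48% and 7.32% with the barcode term). MHC class II genes rose for 2 of 8 members, or 25% (0 rose and 0 fell with the barcode term). Among them 1 rose and 1 fell without nuclei that carried endothelial, stromal or leukocyte genes. Thin limb markers rose for 3 of 10 and fell for 2, or 30% and 20% (2 rose and 2 fell with the barcode term). They took 0.0296% ± 0.0123 of control UMIs and 0.0237% ± 0.00279 of day 28 UMIs (exact permutation p = 0.571, n = 4 and n = 3). Urothelial markers rose for 2 of 7, or 28.6% (1 rose and 0 fell with the barcode term), at 0.00196% ± 0.00169 and 0.00331% ± 0.00216 (exact permutation p = 0.4, n = 4 and n = 3).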
